A study of Mus musculus with 12 samples.

Results

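The cells described here are retinal cells of the mouse that carried PPP1R17 RNA and at least 1 further gene linked to amacrine cells, and in which no RNA for GABA synthesis or glycine uptake was read. The cells were chosen by these measured values: a cell was included when at least 200 genes were detected, PPP1R17 and at least 1 of TFAP2A, TFAP2B, PAX6, EBF3, NHLH2 and LGR5 were above 0, and GAD1, GAD2 and SLC6A9 were all 0. Of 25472 cells in 12 libraries, 24772 reached 200 genes, and 134 of these met every clause. They are called PPP1R17-gated cells below, because their clusters did not all go with the name of an amacrine cell lacking GABA and glycine markers.

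Retinas of C57B6 mice were profiled by Drop-seq, which captures single cells with barcoded beads in droplets and counts each RNA molecule once by a unique molecular identifier (UMI). For oxygen-induced retinopathy (OIR), pups were kept in 75% oxygen with a foster mother from postnatal day 7 to day 12 and then returned to room air, and in the control groups (NORM) pups stayed with their own mother in room air. Retinas were taken at day 17 (P17) or day 14 (P14) and were used after rod depletion, as the CD73 flow-through, or whole. OIR had 8 libraries: at P17, 1 rod-depleted and 2 whole-retina, and at P14, 2 rod-depleted and 3 whole-retina. NORM had 1 library for each age and fraction, 4 in all. No label says that libraries came from separate animals, so every p-value measures the spread between libraries, which may be technical. The median UMI count of the kept cells ran over the libraries from 432 to 1794. The columns of the P14 whole-retina NORM library carry another replicate number than its label, which makes this assignment weaker than that of the other 11 libraries, and it held 15 of the 24 gated NORM cells. In all, 14 cell barcodes occurred in more than 1 library, and 0 of them were gated cells.

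Amacrine cells are the inhibitory interneurons of the inner retina. Nearly all release GABA, made by the glutamate decarboxylases GAD1 and GAD2, or glycine, held through the transporter SLC6A9 (GlyT1). In the adult mouse retina a small amacrine class with neither set of transmitter markers is known, which carries PPP1R17, an inhibitor of protein phosphatases that acts downstream of cGMP-dependent kinase, and part of which carries the basic helix-loop-helix factor NEUROD6. PAX6 and the AP-2 factors TFAP2A and TFAP2B are transcription factors of amacrine cells in general, EBF3 and NHLH2 are transcription factors of amacrine subsets, and LGR5 is a receptor for R-spondins, the secreted proteins that raise WNT signalling. On the GRCm38 build (GENCODE M21), PPP1R17 lies on chromosome 6 from 56017497 to 56032689 on the plus strand, NEUROD6 on chromosome 6 from 55677822 to 55681263 on the minus strand, and SLC6A9 on chromosome 4 from 117834506 to 117875198 on the plus strand.

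The genes of the rule chose the cells and are given as a description, with no test. PPP1R17 was above 0 in 401 kept cells, of which 321 had at least 1 of the 6 further genes and 80 had none. Of the 321, 69 had GAD1 or GAD2, 165 had SLC6A9 and 47 had both kinds, which left the 134. PPP1R17 itself was read as 1 UMI in 59 of the gated cells, as 2 UMIs in 35 and as 3 or more in 40, with at most 11. Exactly 1 of the 6 further genes was seen in 67 gated cells, and in 33 of these it was PAX6. The 187 cells kept out by GAD1, GAD2 or SLC6A9 include 56 with a single UMI over those 3 genes, which stood 1 molecule away from the gate. The gated cells had a median of 1562 UMIs, against 2440 UMIs in those 187 cells.

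PPP1R17 was found in few classes of retinal cells. It was above 0 in 21.4% of 922 cells of an amacrine cluster led by CRABP1 and NHLH2, in 16.5% of 462 cells of the glycinergic amacrine-like cluster and in 15.1% of the 324 cells of the ganglion-like cluster. The share was 0.483% in GABAergic amacrine-like cells and 0.735% in cone bipolar-like cells. Rods, which should lack the gene, had a UMI in 0.293% of cells at a median depth of 750 UMIs, so the share of the GABAergic class stood close to background. Within the cone bipolar-like cells, 1 cluster led by SLIT2 and CDH8 had PPP1R17 in 16 of 739 cells (2.165%), above the rod share. With every cell thinned to 500 UMIs the shares were 15.9%, 5.8% and 4.45% in the CRABP1 and NHLH2 cluster, the glycinergic and the ganglion-like cluster, and 0.226% in rods.

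When all kept cells were clustered, the 134 gated cells fell into unlike places. The CRABP1 and NHLH2 cluster held 76 of them and the glycinergic cluster 4, which makes 80 cells in amacrine-like clusters. The ganglion-like cluster held 41, and the other 13 were scattered over Müller-like, photoreceptor-like, bipolar-like, astrocyte-like and unnamed clusters. The CRABP1 and NHLH2 cluster was led by CRABP1, NHLH2, LAMP5, SLC6A9, PPP1R17 and LGR5, and SLC6A9 was read in 51.6% of its cells, so as a whole it did not lack glycine markers. Scrublet, a caller of doublets, marked 1 of the 134 cells and 0 of the 41. Clusters were built from the expression of these same cells, so values within a cluster are descriptions.

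The 41 gated cells of the ganglion-like cluster carried the markers of retinal ganglion cells, the projection neurons of the retina. NEFL and NEFM encode neurofilaments, SNCG gamma-synuclein, RBPMS an RNA-binding protein of ganglion cells, POU4F1 a ganglion cell transcription factor and SLC17A6 the vesicular glutamate transporter VGLUT2. At least 2 of these 6 markers were read in 100% of the 41 cells and in 0% of the 80 gated cells of the amacrine-like clusters. Their summed level was 146.4 UMIs per 10000 in the ganglion-cluster gated cells, against 1.62 in the amacrine-cluster ones, where POU4F1 and SLC17A6 stood at 0. Of the 6 further genes of the gate, the ganglion-cluster gated cells had only PAX6, read in 70.7% of them, and EBF3, read in 53.7%. LGR5, NHLH2, TFAP2A, TFAP2B and NEUROD6 were read in 0 of 41 cells. That allows a share of cells with a UMI of up to 8.60% (exact binomial limit) and says nothing of cells that carry the RNA unread. PPP1R17 stood at 4.03 UMIs per 10000 in the ganglion-cluster gated cells (exact Poisson interval 3.17 to 5.05) and at 22.6 (19.9 to 25.6) in the amacrine-cluster ones. The median depth was 4143 UMIs in the ganglion-cluster gated cells and 1230 UMIs in the amacrine-cluster ones. All such intervals cover counting error only.

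**Figure D1:**
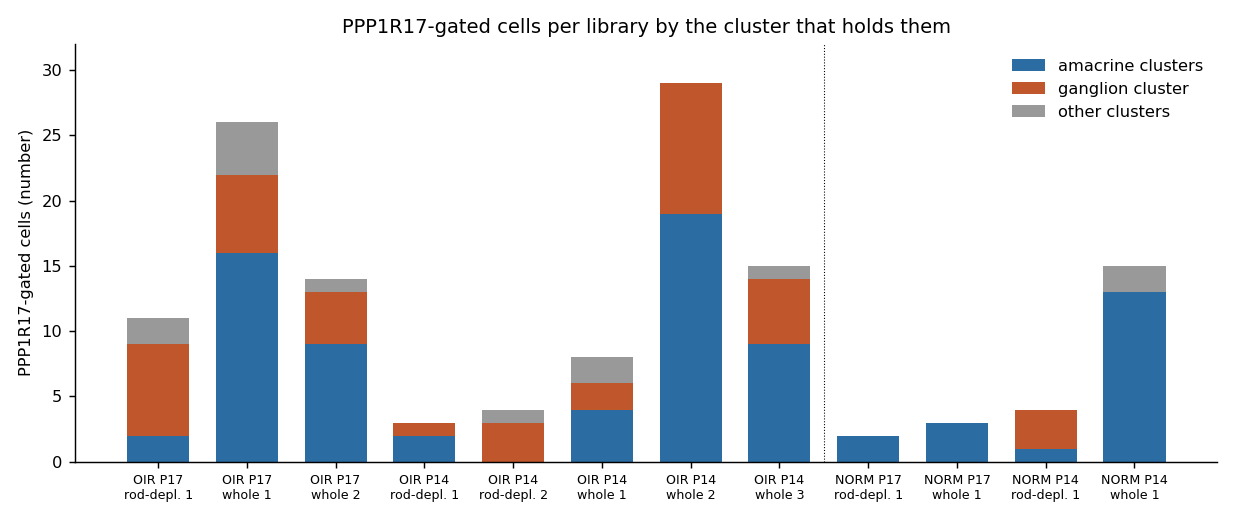
Gated cells in each library (vertical axis, number of cells), stacked by the kind of cluster that held them, with OIR left of NORM and P17 left of P14. Cells of the ganglion-like cluster made up 7 of 11 in the rod-depleted OIR library at P17 and 0 of 15 in whole-retina NORM at P14.

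**Figure D2:**
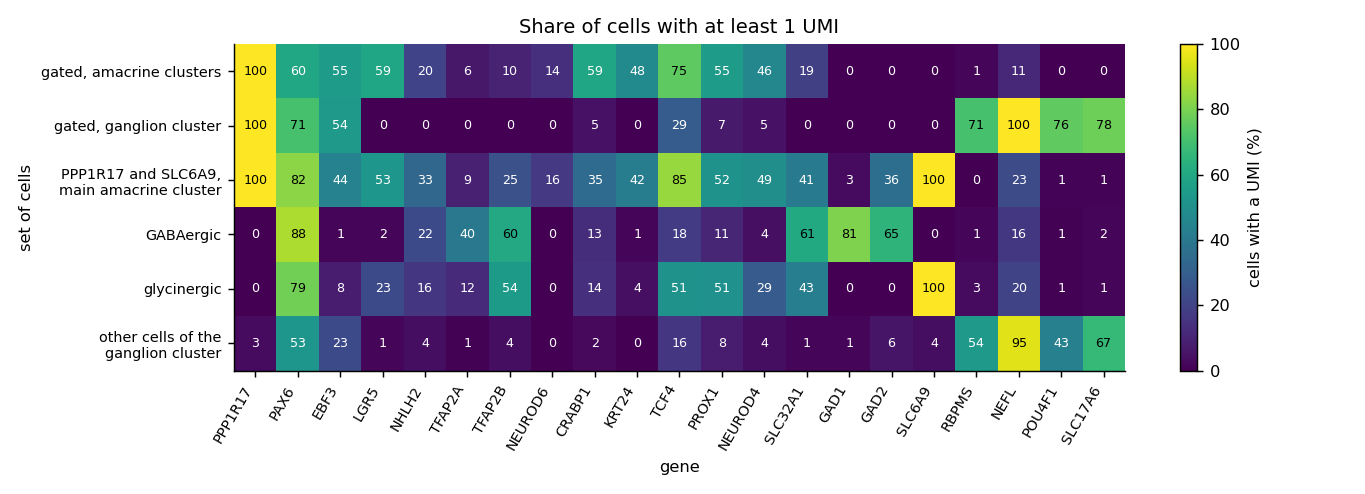
Percent of cells with at least 1 UMI (colour and printed number) for genes in columns and sets of cells in rows, with the gated cells in the top rows. EBF3 was read at a like share in gated cells of amacrine-like and ganglion-like clusters, at 55% and 53.7%, while LGR5, KRT24 and NEUROD6 were read in the amacrine-like set and in 0 of the 41 ganglion-like ones.

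Within the 80 amacrine-cluster gated cells the genes of the rule overlapped only in part. PAX6 was read in 60%, LGR5 in 58.8%, EBF3 in 55%, NHLH2 in 20%, TFAP2B in 10% and TFAP2A in 6.25% of cells. In the GABAergic cells, TFAP2B was read in 60.5% and TFAP2A in 40.1%, and EBF3 in 1.22% and LGR5 in 1.75%. PAX6 and EBF3 were read together in 28 cells, and EBF3 and LGR5 in 28. The 5 TFAP2A cells all had PAX6, and 0 of them had EBF3.

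NEUROD6 marked a part of these cells. It was read in 54 kept cells in all, 49 of them in the CRABP1 and NHLH2 cluster. Among the amacrine-cluster gated cells it was read in 11 of 80 (13.8%), of which 9 had EBF3, 8 had LGR5 and 8 had PAX6. NHLH2, TFAP2A and TFAP2B were read in 0 of the 11. In that cluster 33 cells had both NEUROD6 and PPP1R17, and SLC6A9 was read in 16 of these 33, so NEUROD6 was not limited to cells without glycine transporter RNA. Other genes reported in amacrine cells of this kind were sparse over the 134 gated cells: the transcription factor NEUROD2 was read in 5 cells, the neuropeptides CCK and PENK in 1 and 8, and the growth factor PTN in 24.

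The gate's clause on SLC6A9 moved with depth. Among the 197 PPP1R17 cells of the CRABP1 and NHLH2 cluster, 97 had SLC6A9, 49 had GAD1 or GAD2, 37 had both and 88 had neither. SLC6A9 was read in 22.2% of the 9 cells with up to 500 UMIs, in 31.1% of 45 cells above 500 and up to 1000, in 42.9% of 70 up to 2000, in 63.3% of 60 up to 4000 and in 100% of the 13 deeper cells (exact interval 75.3% to 100%). GAD1 or GAD2 was read in 11.1%, 17.8%, 18.6%, 33.3% and 53.8% of the cells of the same ranges. The pooled level of SLC6A9 in those ranges was 5.66, 5.62, 4.65, 5.42 and 8.06 UMIs per 10000. Thinned to 1000 UMIs per cell, the cells of the 3 deeper ranges had SLC6A9 in 30%, 31.7% and 30.8%. The share of PPP1R17 cells without a SLC6A9 UMI was thus lower at higher depth while the level showed no such order, and gated cells numbered 2, 24, 31, 19 and 0 in the 5 ranges.

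**Figure D3:**
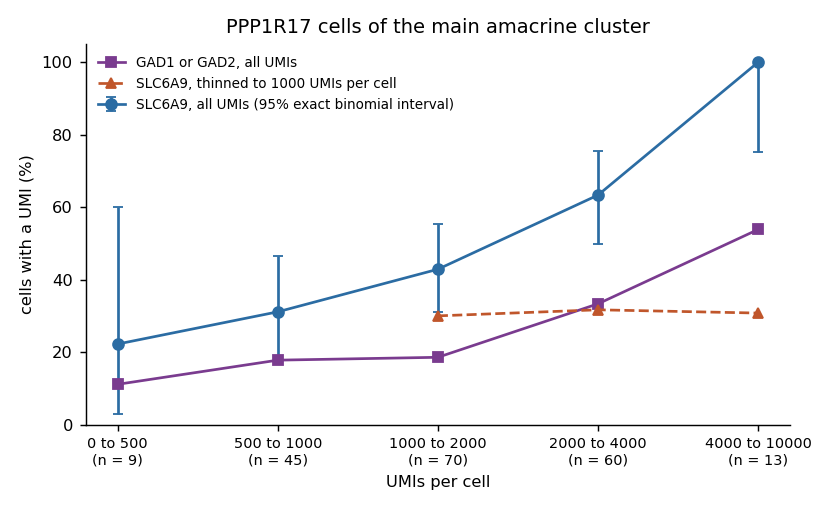
Percent of the 197 PPP1R17 cells of the CRABP1 and NHLH2 cluster with SLC6A9, with exact binomial intervals, and with GAD1 or GAD2, by UMIs per cell, unthinned and thinned to 1000 UMIs. The unthinned SLC6A9 share runs from 22.2% in the shallowest cells to 100% in the deepest, and the thinned share lies between 30% and 31.7%.

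Gated cells and the 97 PPP1R17 cells of the same cluster that held SLC6A9 had many genes in common. EBF3 was read in 55% of the amacrine-cluster gated cells and 44.3% of the SLC6A9 cells, LGR5 in 58.8% and 52.6%, KRT24 in 47.5% and 42.3%, TCF4 in 75% and 84.5%, and NEUROD6 in 13.8% and 16.5%. CRABP1, which binds retinoic acid in the cytoplasm, stood at 33.6 UMIs per 10000 in the gated cells (30.2 to 37.2) and at 13.3 (11.9 to 14.9) in the SLC6A9 cells. The vesicular transporter for GABA and glycine, SLC32A1, was read in 18.8% of the gated cells and 41.2% of the SLC6A9 cells, at median depths of 1230 and 2056 UMIs. These cells were set apart by the gate itself, and their differences were not tested.

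Gated cells were next set against GABAergic amacrine cells, which had GAD1 or GAD2, at least 1 of PAX6, TFAP2A and TFAP2B, and neither SLC6A9 nor PPP1R17 (1316 cells, median 2248 UMIs). They carried more RNA for CRABP1, for the keratin KRT24 and for the transcription factors TCF4 and EBF1, and less RNA for the transcription factor MEIS2 and the neuropeptide NPY. For each library with at least 10 cells of both kinds (6 libraries, 1 of them NORM), the mean level per 10000 was compared as log2(level + 1) by limma with the library as a block. Log2 differences on that scale understate the change of genes with low levels. Of 2514 genes tested, 55 (2.19%) were higher and 106 (4.22%) lower at an adjusted p under 0.05, 6.4% in all, and the median log2 difference of all genes was -0.03. Only genes outside the rule were tested. With no filter on low levels 45 genes passed in place of 161. With cells thinned to 500 UMIs and gated again 83 passed, but in 3 libraries in place of 6. The thinned count is thus not one of the same cells and libraries.

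CRABP1 ran over the 6 libraries from 2.19 to 41.9 with a median of 14.7 in gated cells, against 0.153 to 3.47 with a median of 1.003 in GABAergic cells. It was higher in the gated cells of each library, by 2.80 ± 0.26 on the log2 scale (SE, n = 6 libraries; limma, adjusted p = 1.04e-07). KRT24 averaged 4.83 ± 1.34 in gated cells and 0.0858 ± 0.092 in GABAergic cells (SD, n = 6), a log2 difference of 2.39 (limma, adjusted p = 3.89e-08), and the groups did not overlap. TCF4, a basic helix-loop-helix factor, averaged 10.3 ± 4.44 in gated cells and 1.20 ± 0.355 in GABAergic cells and also did not overlap. EBF1, a relative of EBF3, averaged 4.12 ± 2.18 in gated cells and 0.206 ± 0.211 in GABAergic cells. HIF1A, the oxygen-regulated subunit of the hypoxia-inducible factor, averaged 11.5 ± 7.41 in gated cells and 3.04 ± 1.58 in GABAergic cells, a log2 difference of 1.49 (limma, adjusted p = 7.02e-06) with the same sign in 6 of 6 libraries. Also among the 10 most raised were NELL2, a secreted neuronal protein, FXYD7, a regulator of the sodium pump, the zinc finger factor TSHZ2 and the potassium channel partner KCNIP4, with log2 differences from 1.93 to 1.48.

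MEIS2, a homeodomain factor, ran from 0 to 1.10 with a median of 0.258 in gated cells, against 5.91 to 8.51 with a median of 7.74 in GABAergic cells. It was lower in the gated cells of each library and the groups did not overlap, with a log2 difference of -2.72 ± 0.22 (SE, n = 6 libraries; limma, adjusted p = 1.09e-08). NPY averaged 0.118 ± 0.214 in gated cells and 6.45 ± 2.20 in GABAergic cells. SCG2, a secretogranin of dense-core vesicles, averaged 4.63 ± 2.41 in gated cells and 17.8 ± 4.10 in GABAergic cells. FILIP1L, BC048943, the soluble guanylate cyclase subunit GUCY1A3, the secreted WNT modulator DKK3, the chemokine CXCL14 and the presynaptic scaffold RIMS1 were also among the 10 most lowered, with log2 differences from -2.53 to -1.84.

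By function, 2 genes of GABA handling, SLC32A1 and the transporter SLC6A11, fell in gated cells against GABAergic cells. SLC32A1 averaged 1.30 ± 1.12 in gated cells and 6.53 ± 2.77 in GABAergic cells. The neuropeptide genes NPY, VIP, CARTPT and TAC2 fell, and VIP was 0 in the gated cells of all 6 libraries. Of 14 neuropeptide genes 5 passed the filter on low levels, which a gene could pass through the GABAergic cells alone, so their count is no measure of the list. Of 10 amacrine and neuronal transcription factors tested, TCF4, EBF1, PROX1 and NEUROD4 rose and MEIS2, BHLHE22 and ZFHX3 fell. Of 11 synaptic vesicle genes tested, the complexins CPLX2 and CPLX3 fell, and of 13 genes of synaptic adhesion, NRXN2, PCDH17 and PLXNA2 fell. Of 11 voltage-gated channel genes tested, KCNIP4 and the sodium channel SCN2A1 rose and KCNIP1 and CACNA2D1 fell. Of 7 hypoxia genes tested HIF1A alone rose, and of 15 glycolysis genes PKM rose and ALDOC fell. The 28 nuclear genes of the respiratory chain and the 8 genes of GABA and glycine receptors had 0 calls in either direction, with list medians of -0.06 and -0.25.

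Markers of ganglion cells moved with this comparison. NEFL, NEFM, SNCG, POU4F1 and SLC17A6, all 5 of the 6 markers that were tested, rose in gated cells against GABAergic cells. The summed level of the 6 ran over the 6 libraries from 1.47 to 137.3 with a median of 90.9 UMIs per 10000 in gated cells, against 1.66 to 32.3 with a median of 6.79 in GABAergic cells. Among the genes named above, NELL2 was read in 78.0% of the ganglion-cluster gated cells and 28.8% of the amacrine-cluster ones, FXYD7 in 80.5% and 18.8%, and KCNIP4 in 58.5% and 28.8%. These sets had median depths of 4143 and 1230 UMIs. Per 10000 UMIs NELL2 stood at 8.11 and 3.06, FXYD7 at 5.86 and 1.80, and KCNIP4 at 5.32 and 2.61. CRABP1 stood at 0.108 UMIs per 10000 in the ganglion-cluster gated cells and at 33.6 in the amacrine-cluster ones, and KRT24 was 0 and 8.46 in the same sets. Limited to cells of amacrine-like clusters, in 3 libraries, 68 genes were higher (2.71% of 2508 tested) and 139 lower (5.54%), 8.25% in all. Of the 55 genes higher with all gated cells, 30 were also higher there (54.6% of the 55 and 44.1% of the 68), and 83 of the 106 lower genes were also lower (78.3% of the 106 and 59.7% of the 139). There CRABP1 averaged 34.4 in gated cells and 1.45 in GABAergic cells. NELL2, FXYD7 and KCNIP4 were higher there too, with log2 differences of 1.755, 1.345 and 1.447 (limma, adjusted p = 4.59e-05, 0.00673 and 0.00112). PROX1, a homeodomain factor, averaged 10.8 in gated cells and 0.738 in GABAergic cells, and NEUROD4 averaged 7.25 and 0.139.

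**Figure D4:**
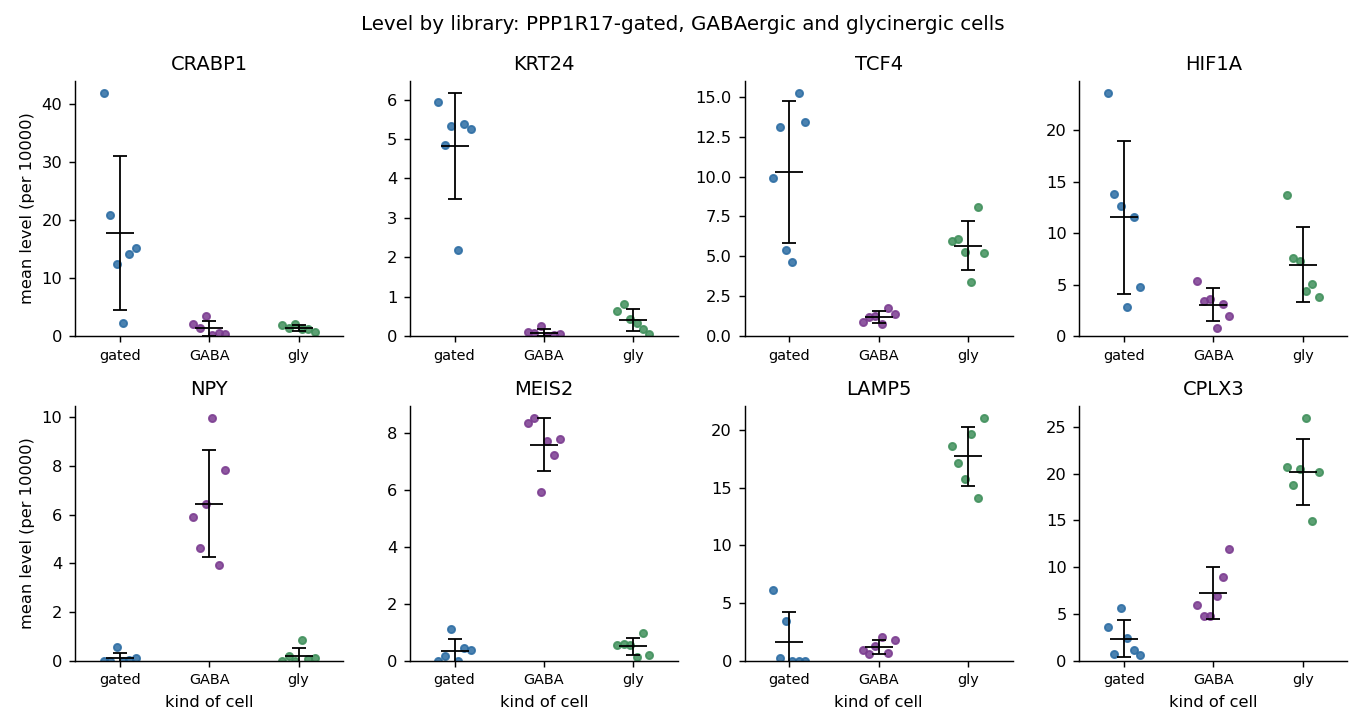
Mean level per 10000 UMIs (linear axis) of 8 genes in gated, GABAergic (GABA) and glycinergic (gly) cells, 1 point for each of the 6 libraries with at least 10 cells of each kind, with the mean and SD over libraries as bars. CRABP1 and KRT24 lie higher in gated cells than in GABAergic cells on average, TCF4 shows the same order, NPY and MEIS2 lie lower than in GABAergic cells, and LAMP5 and CPLX3 lie lower than in glycinergic cells.

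Against glycinergic amacrine cells, which had SLC6A9, at least 1 of PAX6, TFAP2A and TFAP2B, and none of GAD1, GAD2 and PPP1R17 (638 cells, median 1648 UMIs), the gated cells again carried more CRABP1 and KRT24. They carried less of LAMP5, a lysosome-associated membrane protein of some interneurons, of the complexin CPLX3, of the carbonic anhydrase CAR2 and of GJD2, the gap junction protein connexin 36. Of the 638 glycinergic cells, 281 lay in the glycinergic cluster and 193 in the CRABP1 and NHLH2 cluster, which also held 76 gated cells. The kinds were thus split in part within 1 cluster, by reads of SLC6A9 and PPP1R17. Of 2449 genes tested in the same 6 libraries, 92 (3.76%) were higher and 96 (3.92%) lower, 7.68% in all, with a median of -0.03 over all genes. Without the whole-retina OIR library of replicate 2 at P14, 119 genes passed in place of 188. With cells thinned to 500 UMIs and gated again 25 passed, in 3 libraries in place of 6. The 2 comparisons share the gated cells, so they are not independent.

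CRABP1 averaged 17.8 ± 13.3 in gated cells and 1.41 ± 0.481 in glycinergic cells (SD, n = 6 libraries), a log2 difference of 2.63 ± 0.29 (limma, adjusted p = 1.40e-06). LAMP5 ran from 0 to 6.11 with a median of 0.128 in gated cells, against 14.1 to 21 with a median of 17.8 in glycinergic cells, and its log2 difference was -3.33 ± 0.31 (SE, n = 6 libraries; limma, adjusted p = 1.29e-07). CPLX3 averaged 2.36 ± 1.96 in gated cells and 20.2 ± 3.57 in glycinergic cells. CAR2 averaged 9.67 ± 9.24 in gated cells and 46.5 ± 18.3 in glycinergic cells, and the lowest glycinergic library (22.5) lay below the highest gated one (23.1). GJD2 averaged 0.677 ± 0.713 in gated cells and 6.42 ± 1.49 in glycinergic cells. OPTC, COL9A1, HSPA12A, TMEM132A, PAK7 and PROM1 were the other genes among the 10 most lowered, with log2 differences from -2.17 to -1.69. The deubiquitinase UCHL1 averaged 7.00 ± 1.28 in gated cells and 0.839 ± 0.547 in glycinergic cells. NELL2, KRT24, STMN2, FXYD7, TSHZ2, TPPP3 and RESP18 rose by 2.06 to 1.55 on the log2 scale.

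By function, the gap junction genes GJD2 and GJA1 (connexin 43, a gap junction protein of glia) fell in gated cells against glycinergic cells. Of 6 such genes these 2 passed the filter on low levels, which a gene could pass through the glycinergic cells alone, so their count is no measure of the list. In amacrine-like clusters alone GJD2 fell and GJA1 was not tested. GJA1 was among the leading genes of an unnamed cluster that held 73 of the 638 glycinergic cells. Among calcium-binding genes, visinin-like VSNL1, calretinin CALB2 and CALM2 rose, and calbindin CALB1 and NCALD fell. Of 8 transcription factors tested, EBF1 and TCF4 rose and NFIA, NFIX and PROX1 fell. PROX1 averaged 5.04 ± 3.18 in gated cells and 8.37 ± 3.56 in glycinergic cells, a log2 difference of -0.75 (limma, adjusted p = 0.0349). Without the ganglion-cluster cells, in the 3 libraries with enough cells of amacrine-like clusters, PROX1 averaged 10.8 in gated cells and 11.2 in glycinergic cells and did not pass (limma, adjusted p = 0.983). In that set NFIX did not pass either (limma, adjusted p = 0.1), and NEUROD4 rose. SLC32A1 averaged 1.30 ± 1.12 in gated cells and 4.51 ± 0.832 in glycinergic cells and fell, while ABAT, the enzyme that breaks down GABA, averaged 2.49 ± 0.916 in gated cells and 0.737 ± 0.267 in glycinergic cells and rose. Of 10 voltage-gated channel genes KCNIP4, SCN3A and SCN2A1 rose, and of 8 glutamate receptor genes GRIA1 rose and GRIA3 fell. Of 9 hypoxia genes ANKRD37 rose, and HIF1A, at 11.5 ± 7.41 in gated cells and 6.94 ± 3.65 in glycinergic cells, did not pass (limma, adjusted p = 0.146). In amacrine-like clusters alone HIF1A averaged 20.9 in gated cells and 9.37 in glycinergic cells and rose, with a log2 difference of 1.14 (limma, adjusted p = 0.000179), as did ANKRD37. With all gated cells, the 15 glycolysis and 29 respiratory chain genes had 0 calls, with list medians of -0.09 and -0.27. In amacrine-like clusters alone PFKP and HK1 of 16 glycolysis genes and ATP5B of 27 respiratory chain genes fell, beside 3.9% of all genes tested. The list medians there were -0.25 and -0.43.

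Of 5 Müller glia markers tested, RLBP1 and SLC1A3 rose in gated cells against GABAergic and against glycinergic cells. DKK3 fell in both comparisons, and APOE fell against glycinergic cells. The summed level of the 5 markers was 204.7 UMIs per 10000 in the 13 gated cells outside the amacrine-like and ganglion-like clusters. It was 5.04 in the amacrine-cluster and 4.51 in the ganglion-cluster gated cells, 28.9 in GABAergic cells and 59.7 in glycinergic cells. Among 3 markers tested in amacrine-like clusters alone, SLC1A3 rose and DKK3 and GLUL fell against GABAergic cells. Against glycinergic cells 0 of 2 passed there. The part of Müller glia RNA in the results was not tested. Ganglion markers moved here too, with the same 5 of 5 tested markers higher and a summed level in glycinergic cells of 2.28 to 4.63 UMIs per 10000 over the 6 libraries, against the range given for gated cells. STMN2, a stathmin of growing axons, was read in 90.2% of the ganglion-cluster gated cells and 7.5% of the amacrine-cluster ones, UCHL1 in 95.1% and 30%, and TPPP3 in 75.6% and 6.25%. Limited to amacrine-like clusters, 58 genes were higher (2.31% of 2511 tested) and 98 lower (3.9%), 6.21% in all. Of the 92 higher with all gated cells, 36 were higher there too (39.1% of the 92 and 62.1% of the 58), and of the 96 lower, 57 were lower there too (59.4% of the 96 and 58.2% of the 98). STMN2 did not pass in that set (log2 difference 0.34), UCHL1 passed with 1.31, and CRABP1 averaged 34.4 in gated cells and 1.75 in glycinergic cells. OPTC and COL9A1 were too low there to be tested, and 73 of the 638 glycinergic cells lay in the unnamed cluster that OPTC leads.

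The share of gated cells was compared between OIR and NORM, P17 and P14, and rod-depleted and whole retina. Over the 8 OIR libraries it ran from 0.155% to 1.25% with a median of 0.5683% of kept cells, and in the 4 NORM libraries it was 0.0803% and 0.527% at P17 and 0.199% and 0.616% at P14 (rod-depleted before whole retina at each age). The OIR mean was 0.607% ± 0.349 (SD, n = 8) and the NORM mean 0.356% ± 0.257 (SD, n = 4), and the groups overlapped. Within strata of age and fraction the difference was 0.215 percentage points, higher in OIR in 3 of 4 strata (exact permutation test of libraries within strata, two-sided, 72 arrangements, p = 0.25, adjusted over the 3 share comparisons 0.375; the smallest p allowed is 0.0139). In the pairs that shared a sequencing run, both at P14, rod-depleted OIR replicate 2 had 0.221% and NORM 0.199%, and whole-retina OIR replicate 1 had 0.503% and NORM 0.616%. With cells thinned to 500 UMIs and gated again, the stratified difference was -0.214 points, opposite in sign, and OIR was lower in 3 of 4 strata (exact permutation test, adjusted p = 0.4375). Thinning left out cells below 500 UMIs. In whole-retina NORM at P17 the share was 3 of 230 cells (1.304%) after thinning and 3 of 569 (0.527%) before.

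Rod-depleted libraries held 0.245% ± 0.188 gated cells (SD, n = 5), against 0.723% ± 0.262 in whole retina (n = 7). The difference was -0.409 points, lower in 4 of 4 strata (exact permutation test, two-sided, 120 arrangements, p = 0.0167, adjusted 0.05, which is not under the threshold). With at least 2 UMIs of PPP1R17 asked of a gated cell it was -0.317 points (adjusted p = 0.025, exact permutation test). The adjusted p was 0.1 after thinning to 500 UMIs and 0.175 after thinning to 300. Gated cells of amacrine-like clusters made up 1.18% ± 1.09 of those clusters' cells after rod depletion and 3.28% ± 0.993 in whole retina, a stratified difference of -2.175 points (exact permutation test, adjusted p = 0.075). The amacrine-cluster gated cells numbered 7 of 10184 kept cells after rod depletion and 73 of 14588 in whole retina, and the ganglion-cluster gated cells 14 and 27. P17 libraries held 0.501% ± 0.253 (n = 5) and P14 libraries 0.539% ± 0.400 (n = 7), a stratified difference of -0.0059 points (exact permutation test, p = 0.95), and 0.104 points with cells thinned to 500 UMIs.

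Expression in OIR against NORM was compared over all 12 libraries, each with at least 2 gated cells and weighted by their number, with age and fraction in the limma fit. The 5 genes that passed, all higher in OIR, were markers or leading genes of the ganglion-like cluster: CALB2, NEFL, SNCG, NEFM and the surface protein THY1. They are 0.207% of 2419 genes tested, 163 genes had an unadjusted p under 0.05, and 0 genes were lower. The median log2 difference of all genes was 0.08. With quantile normalisation 7 genes were higher and 2 lower, and 0 genes passed after thinning to 500 UMIs, with no filter on low levels, or in cells with at least 2 UMIs of PPP1R17. The thinned fit and the fit of cells with at least 2 such UMIs had 10 libraries each.

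NEFL stood at 28.9 in the rod-depleted and at 15.9 and 14.2 in the whole-retina libraries of OIR at P17, and at 15.5 and 11.6 in rod-depleted and 10.1, 28.3 and 31.1 in whole-retina OIR at P14. In NORM it stood at 0 and 0 at P17 (rod-depleted, whole), and at 33.0 and 1.37 at P14. The groups overlapped, since the rod-depleted NORM library at P14, with 4 gated cells of which 3 lay in the ganglion-like cluster, held the highest value of all 12. The log2 difference of NEFL was 3.02 ± 0.51 (SE; limma, adjusted p = 2.89e-06). In the pairs that shared a sequencing run, both at P14, it stood at 11.6 in OIR and 33.0 in NORM after rod depletion, and at 10.1 in OIR and 1.37 in NORM in whole retina, so the direction differed between them. At P17 no OIR library is known to share a run with NORM. With the run as a term in place of age, over the 10 libraries whose run is given and with 2 residual degrees of freedom, 0 genes passed (191 at an unadjusted p under 0.05), and the log2 difference of NEFL was 1.21 (limma, adjusted p = 0.634). CALB2 ran from 17.4 to 49.7 with a median of 31.0 in OIR, against 0 to 43.3 with a median of 12.5 in NORM (log2 difference 2.93 ± 0.47; limma, adjusted p = 1.26e-06). SNCG, NEFM and THY1 differed by 2.80, 2.70 and 2.26 (limma, adjusted p = 9.92e-05, 0.000163 and 0.00979), and each was above 0 in at most 2 of the 4 NORM libraries.

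The make-up of the gated cells moved with these genes. The ganglion-like cluster held 38 of 110 gated OIR cells and 3 of 24 gated NORM cells. The summed level of the 6 ganglion markers ran from 23.6 to 137.3 UMIs per 10000 over the OIR libraries, and in NORM it was 0 and 0 at P17 and 110.1 and 1.47 at P14 (rod-depleted, whole). In the gated cells of amacrine-like clusters alone, NEFL ran from 0 to 3.67 in OIR and from 0 to 9.63 in NORM, and CALB2 from 1.23 to 12.2 in OIR and from 0 to 38.5 in NORM. In that set 1 gene was higher (0.0399% of 2507 tested) and 1 lower (0.0399%), 0.0798% in all, and of the 5 genes only CALB2 could be tested, with a log2 difference of 0.94 (limma, adjusted p = 0.91). Leaving out whole-retina NORM at P14, 2 genes passed and none of these 5 was among them, with log2 differences of 1.62 to 2.35 (limma, adjusted p = 0.835 for each). The part of cell make-up in these differences was not tested beyond these values.

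**Figure D5:**
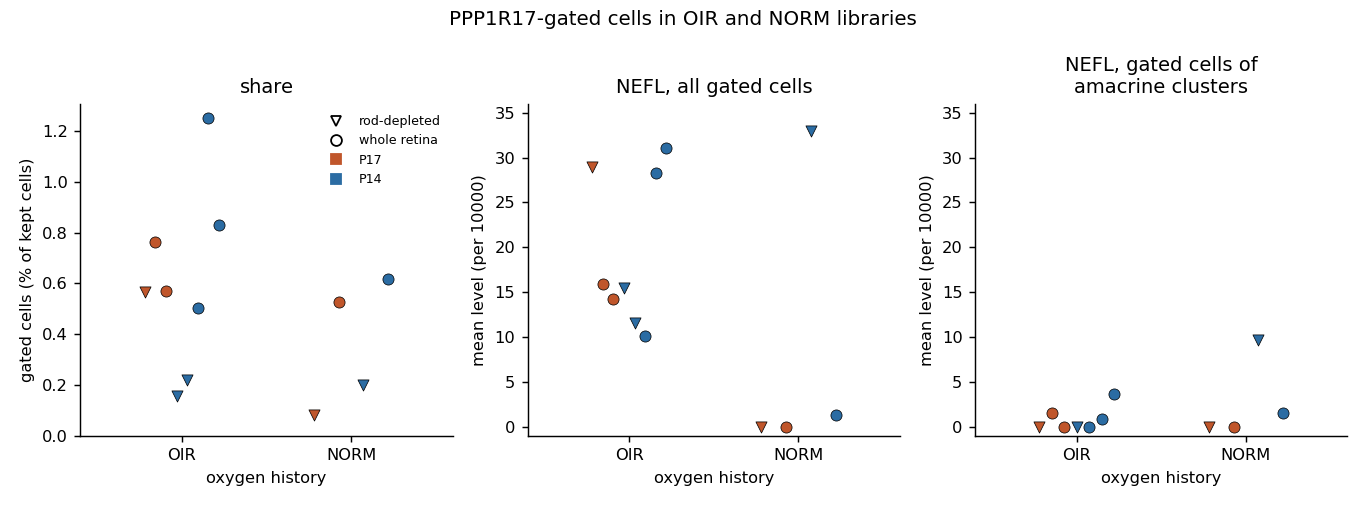
Share of gated cells among kept cells (left, percent), and mean NEFL level per 10000 UMIs in all gated cells (middle) and in those of amacrine-like clusters (right), 1 point for each library that has such cells, with OIR left of NORM, shape for the fraction and colour for the age. The shares of OIR and NORM overlap; NEFL in all gated cells is at 1.37 or less in 3 NORM libraries and at 33.0 in the other, which is rod-depleted, while in the amacrine-cluster cells it lies between 0 and 9.63.

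The ganglion markers (NEFL, SNCG and NEFM, 3 of 6 tested) and the calcium-binding genes (CALB2, 1 of 6 tested) were the 2 lists of genes that held a call in OIR against NORM. Of 8 hypoxia genes and 14 glycolysis genes tested 0 passed, with list medians of -0.04 and 0.34. HIF1A had weighted means of 10.6 in OIR and 16.6 in NORM, VEGFA, the vessel growth factor, 2.73 and 1.74, and the lactate dehydrogenase LDHA 11.2 and 5.97, and none passed (limma, adjusted p = 0.963, 0.929 and 0.83). The next genes by p did not pass either: HSPA8, TPM1, ARL6, GM26924 and SNHG11 had adjusted p from 0.0616 to 0.189. In amacrine-like clusters alone ARL6 was lower in OIR and passed (log2 difference -2.59, limma, adjusted p = 0.0397). There ARL6 was above 0 in 2 of 7 OIR and 2 of 4 NORM libraries. PPP1R17 itself, which the gate used, ran from 7.41 to 28.7 with a median of 14.2 in OIR, against 6.93 to 42.1 with a median of 23.9 in NORM. With 24 gated cells in NORM, 9 of them outside 1 library, the SE of a log2 difference was 0.47 to 0.53 for the 10 genes with the smallest p.

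The ganglion-like cluster was looked at by library, as a description chosen after the values were seen. Gated cells made up 15.97% of its 238 OIR cells, with 9.09% to 27.0% over the 8 libraries, and 3.49% of its 86 NORM cells, with 7.14% in the rod-depleted library at P14 and 0 in the other 3. PPP1R17 stood at 1.06 UMIs per 10000 in the OIR cells and at 0.604 in the NORM cells of this cluster, on 81 and 13 UMIs. The cluster's cells had a median of 2490 UMIs in OIR and 1767 in NORM. Thinned to 500 UMIs, PPP1R17 was read in 12 of 225 OIR cells (5.33%) and in 1 of 67 NORM cells (1.49%).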

How the data were processed

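Per the labels, 12 Drop-seq libraries of mouse retina were sequenced. STAR 2.4.0, bcl2fastq and mm10 (GRCm38) are named in the submitters' processing notes. Sources used here give neither annotation nor doublet handling. The authors deposited 1 table of natural log values, ln(1 + UMI count / cell total × 10000), as the values themselves show: each cell adds up to 10000, and with a tolerance of 0.05 UMI 100% of values above 0 came out whole. UMIs were recovered from it for depth, intervals (95%, exact) and thinning. For counts and fits of gated cells after thinning, the gate was read from the thinned UMIs. Cells below the thinned depth were left out there. Column names gave the library, and 5799 columns of other sets were not used.

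Cells with at least 200 genes were gated and clustered (2000 variable genes, 30 components, 15 neighbours, Leiden resolution 1.0; scanpy 1.11.5, leidenalg 0.10.2, Python 3.11.15). Clusters took a name only with at least 3 markers detected in 10% of cells. Per library the mean level of a set of cells was taken as log2(level + 1) and tested with limma 3.58.1 (R 4.3.3, trend, Benjamini-Hochberg adjustment over all genes tested, threshold 0.05) on genes with a mean of at least 1 and a value above 0 in 3 libraries. The 10 genes of the gate were left out of the 2 comparisons between cell kinds. For OIR against NORM, at least 10 cells per library left too few NORM libraries, so a fit weighted by cell number over libraries with at least 2 gated cells was used instead, a choice made after seeing the data. Shares were compared with exact permutation tests. The fits were checked on simulated data.

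The members of the set and all gene lists were chosen with earlier results of these data known. Named genes were those of the gate and its amacrine list, the 10 highest and 10 lowest differences with 1 sign in every library, and for OIR against NORM the 10 smallest p. Other genes were named after their values were seen. Replicate numbers are not stated to pair libraries. Some genes that these rules name are not reported here.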

Additional observations from a re-analysis of the deposited data

Results flagged for a closer look

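Among the 5 rod-depleted libraries, the share of PPP1R17-gated cells stood apart in the OIR library at P17, with 0.567% of kept cells. The other 4 ran from 0.0803% to 0.221%, and the gap to the nearest of them, divided by the whole range, was 0.711, just above the 95% critical value of Dixon's test. Chance gives such a gap in about 1 in 20 groups, and 12 groupings of libraries were looked at. Of the 11 gated cells of this library, 7 lay in the ganglion-like cluster and 2 in amacrine-like clusters. Those 2 were 1.31% of its 153 cells of amacrine-like clusters, a share that did not stand apart.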

How the results depend on the processing

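The 161 genes that differed from GABAergic cells became 45 with no filter on low levels, 58 with a mean of at least 3, 83 after thinning to 500 UMIs (3 libraries), and 120 to 212 when 1 library at a time was left out. The 188 genes against glycinergic cells became 63 with no filter, 63 with a mean of at least 3, 123 without the library as a block, 25 after thinning (3 libraries), and 119 to 190 with 1 library left out. The 40 named genes of these comparisons passed in all 6 such fits. The 5 genes of OIR against NORM became 10 with a pseudocount of 0.2, 0 with no filter, 21 with summed UMIs, 9 with quantile normalisation, 2 with equal weights and 0 with the sequencing run as a term (both added after seeing the data), 2 in amacrine-like clusters, 0 with at least 2 UMIs of PPP1R17, 0 after thinning, and 2 (without whole-retina NORM at P14) to 11 (without rod-depleted NORM at P14). With the replicate number as a block, 3 genes passed; the labels do not say that numbers pair libraries. HSPA8 ran from -0.44 (without whole-retina NORM at P14) to 2.29 (without whole-retina NORM at P17). The OIR share difference was -0.214 points thinned to 500 UMIs and -0.0012 thinned to 300, 0.125 to 0.290 with 1 library left out, and 2.73 as the ratio of all gated cells, whatever their cluster, to 100 cells of amacrine-like clusters (exact permutation p = 0.0417, adjusted 0.125). With the gated cells of amacrine-like clusters alone over those clusters' cells, an alternative added after seeing the data, it was 0.257 points (adjusted p = 0.75). The rod-depletion difference was -0.317 points with at least 2 UMIs of PPP1R17 (adjusted p = 0.025), -0.656 thinned to 500 UMIs (adjusted p = 0.1), -0.224 thinned to 300 (0.175), -0.704 with at least 400 genes (0.1), -0.905 as that ratio (0.383), -2.175 within amacrine-like clusters (0.075), and -0.512 to -0.360 with 1 library left out. The P17 difference was 0.868 as that ratio, 0.475 points within amacrine-like clusters, 0.104 thinned to 500 UMIs, 0.118 with at least 400 genes, 0.0413 with at least 2 UMIs, and -0.134 to 0.0427 with 1 library left out. The cause was not tested. OIR against NORM at 5, 10 or 20 gated cells per library was not run, since 1 NORM library had 5 or 10 such cells and none had 20, nor was a test of its difference between ages. The gate itself moved with depth, as SLC6A9 was read in more of the deeper cells.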
